A study of Mus musculus with 6 samples.

Results

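The proteasome genes other than the interferon-inducible catalytic subunits were described across the 6 arrays of the study. They were chosen by symbol, taking every probe set that the array's annotation assigned to a single gene of the Psma, Psmb, Psmc, Psmd, Psme, Psmf or Psmg series, without Psmb8, Psmb9 and Psmb10, and keeping for each gene the brightest probe set by its mean over the 6 arrays. The rule found 46 of the 18193 genes that the array measured singly. Of these, 2 matched by name only: Psmc3ip encodes a meiotic recombination factor, and Psme3ip1 a protein named for its contact with an activator. The other 44 genes, with 96 probe sets in all, encode subunits, regulators or assembly factors of the proteasome, and every count below is over these 44. Psme2, the partner subunit of Psme1 in an interferon-inducible activator, was represented only by a probe set shared with Psme2b and is therefore given apart.

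The proteasome is the protease that degrades most of the short-lived and damaged proteins of the cytosol and nucleus, generally after they have been tagged with chains of ubiquitin. Its core particle is a barrel of stacked rings in which alpha subunits form the gated entrance and beta subunits the chamber with the cutting sites, and its regulatory particle, made of a base with a ring of ATPases and a lid, captures, unfolds and deubiquitinates the substrates. The peptides it releases are also the main source of ligands for MHC class I, and cells exposed to interferon replace the 3 constitutive catalytic subunits, encoded by Psmb5, Psmb6 and Psmb7, with the products of Psmb8, Psmb9 and Psmb10. Lymph node endothelium was examined in this study for its display of peripheral tissue antigens to CD8 T cells, a process that draws on such peptides.

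Endothelial cells were sorted from pooled skin-draining and mesenteric lymph nodes of 6 week old C57BL/6 mice, with no treatment or genetic change in either group, after leukocytes had been depleted with CD45 beads. One group of 3 arrays carried the gate label "Double positive" (gp38+ CD31+, the gate of lymphatic endothelial cells, LEC) and the other group of 3 arrays the gate label "CD31 +" (gp38- CD31+, the gate of blood endothelial cells, BEC). The cell type words of the labels were the other way round, with LEC written beside CD31 + and BEC beside Double positive, and groups are named here by the gate. Reading them by the cell type word would exchange the names of the groups and leave every value as it is, with each sign turned. Each array was hybridised with RNA amplified over 2 rounds from 20 ng, pooled from several mice, so a value is an average over the sorted cells, and fewer expressing cells cannot be told apart from less RNA per cell.

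The gate names fitted the marker genes better than the cell type words did. Of 10 lymphatic markers, 7 were higher on the double positive arrays at a false discovery rate of 5%, Lyve1 by 5.32 on the log2 scale. Of 10 blood endothelial markers, 6 were lower. Prox1, which specifies lymphatic endothelium, gave a difference of only 0.07 ± 0.875 (SE) at the brightest of its 3 probe sets. That probe set read 6.73, 6.56 and 9.2 on the double positive arrays and 7.32, 6.92 and 8.04 on the CD31+ arrays. Pdpn, which encodes gp38 itself, was higher on the double positive arrays by 4.07. None of the 11 measured markers of hematopoietic cells had a mean of 5 or more. Ptprc, which encodes CD45, read 2.53, 2.74 and 2.74 on the double positive arrays and 4.37, 2.77 and 4.03 on the CD31+ arrays. It did not overlap between the gates and differed by -1.05 (adjusted p = 0.659 in limma over all probe sets). Among 10 markers of fibroblastic reticular cells, which also carry gp38, 2 were higher on the double positive arrays (Postn by 4.60 and Thy1 by 3.03) and 0 were lower. When dim probe sets were left out of the test, 3 of 7 were higher (Postn, Thy1 and Il7) and 3 lower (Col1a2 by -3.11, Col3a1 by -3.15 and Pdgfrb by -2.92). Thy1 and Il7 entered that test through the double positive arrays alone, and Col1a2 and Pdgfrb through the CD31+ arrays alone. The filter therefore favoured those calls, and they add nothing to the values themselves. The summed signal of the 10, on the log2 scale, lay between 11.11 and 11.89 on the double positive arrays and between 8.33 and 9.78 on the CD31+ arrays. Without Postn, which made up most of it, the sum of the other 9 lay between 7.8 and 8.26 and between 7.8 and 9.61. The part of these cells in the proteasome values was not tested. The arrays also differed in the brighter part of their values. Over all probe sets their medians were alike, between 2.442 and 2.452 for the double positive gate and between 2.466 and 2.474 for the CD31+ gate. For the 5764 probe sets averaging 5 or more (called bright here), the median of an array lay between 7.069 and 7.31 for the double positive gate and between 6.157 and 6.661 for the CD31+ gate, and CD31+ replicate 3 was the dimmest. Values are therefore given both as deposited and with each array centred on its median over bright probe sets, which takes 0.68 from every difference.

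Proteasome genes read higher on the double positive arrays than on the CD31+ arrays as a set, and no single one passed the test over the whole array. The difference, double positive minus CD31+ on the log2 scale, was above 0 for 41 of 44 genes, with a median of 0.84 and quartiles of 0.34 and 1.2. Over all 18193 genes, 9208 lay above 0 and the median was 0. Among the 3984 bright genes the lower quartile was 0.23, so most of those lay above 0 as well. In the limma fit over all 45037 probe sets 0 of 44 genes were higher and 0 lower at 5% false discovery rate, where 0.502% of all probe sets were higher and 0.113% lower. The smallest adjusted p was 0.0834, for Psma4. At an unadjusted p under 0.05, 16 of the 44 were higher and 0 lower, against 7.64% and 1.32% of all probe sets. With every gene at its brightest probe set, as for the 44, 2275 of 18193 genes were higher and 386 lower.

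Many of the probe sets were dim. The lowest value of the table was 2.39, and 21 of the 44 genes had a mean under 5, where the median difference was 0.43. The remaining 23 genes were bright, and their median difference was 1.13, with a range from -0.03 to 1.76. All bright genes of the array together had a median of 0.73. When only the 6088 probe sets reaching 5 on at least 3 arrays were tested, the same 23 genes remained, none of them through the double positive arrays alone. In that fit 17 of 23 were higher at an unadjusted p under 0.05, as were 1888 of 4207 genes at their brightest probe set. At 5% false discovery rate 9 of 23 were higher and 0 lower, where 32.9% of the probe sets were higher and 3.81% lower. These were the alpha subunits Psma1, Psma2, Psma3 and Psma5, the catalytic subunit Psmb5, the ATPase Psmc2, the lid subunits Psmd6 and Psmd14, and the activator Psme4. The number depended on the arrays, since it fell to 2 without double positive replicate 1, to 4 without either of the other double positive arrays and to 5 without CD31+ replicate 3, while leaving out CD31+ replicate 1 gave 8 and leaving out CD31+ replicate 2 gave 11. The share of all tested probe sets called higher moved as well, to 14.2%, 23.4% and 19.5% without double positive replicate 1, 2 or 3 and to 27.4%, 37.5% and 22.6% without CD31+ replicate 1, 2 or 3. With the replicate number as a block, 17 of 23 were higher and 0 lower, where 47.4% of the probe sets were higher and 4.78% lower. Without the filter the block gave 0 higher and 0 lower of 44, where 0.00888% of all probe sets were higher.

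**Figure D1:**
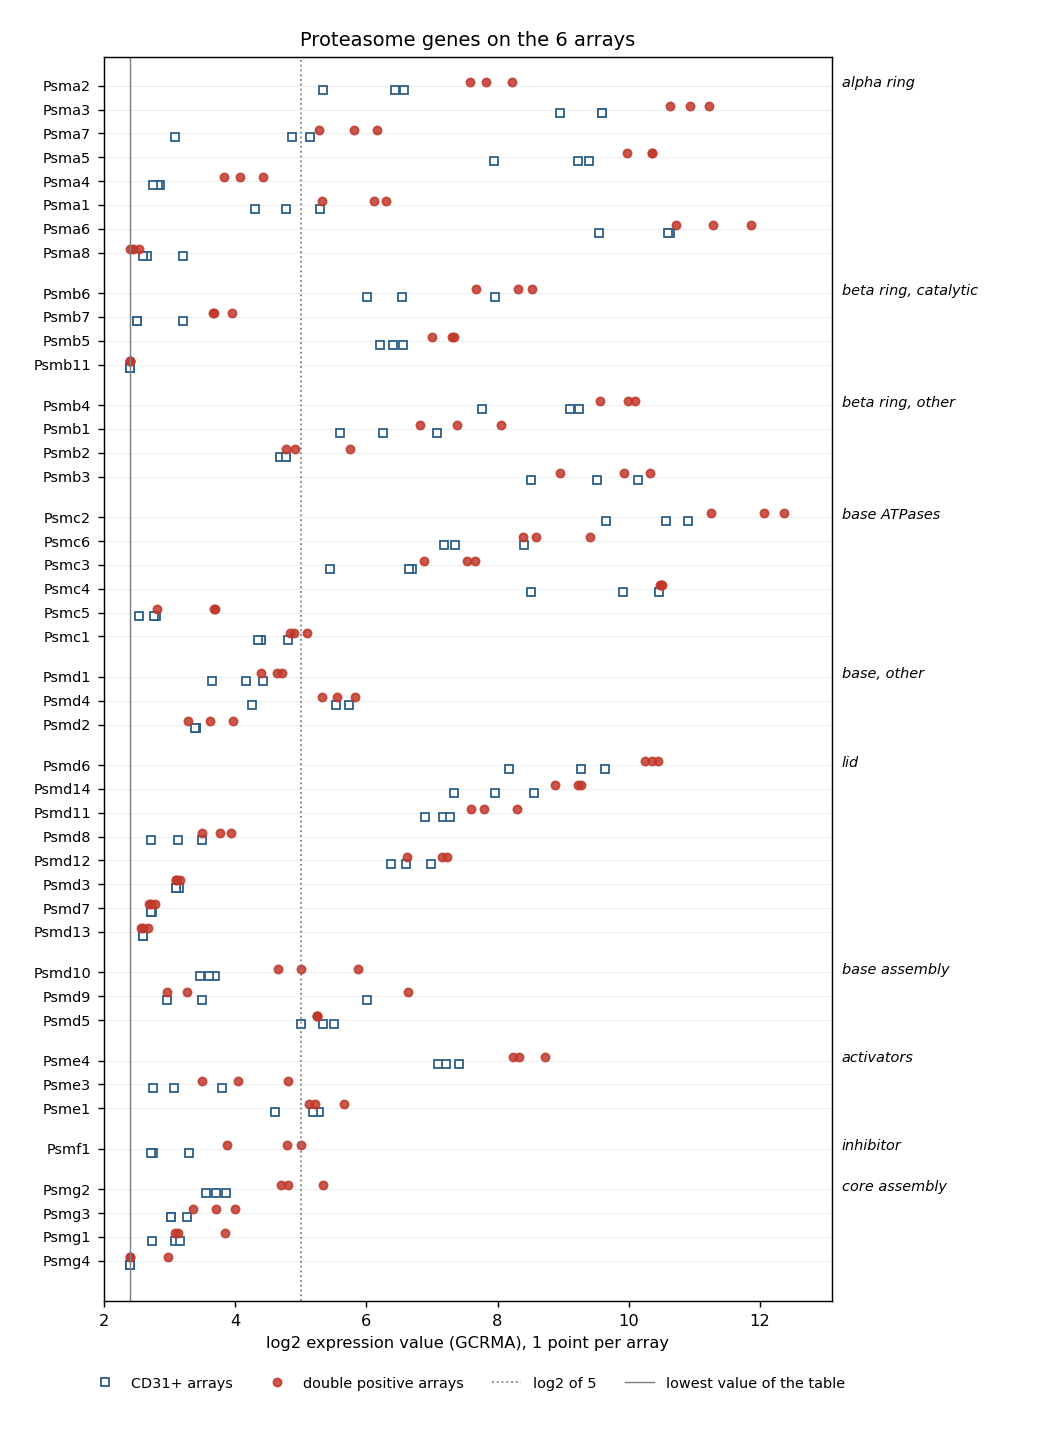
Log2 expression value of each of the 44 proteasome genes on each array (horizontal axis, 1 point per array), grouped by role, with filled circles for the 3 double positive arrays and open squares for the 3 CD31+ arrays. The dotted line marks 5 and the solid line the lowest value of the table (2.39). The circles lie to the right of all squares for 23 genes, and the squares to the right of all circles for Psma8 alone.

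Few genes passed the filtered fit with centred arrays. Centring took the same 0.68 from every gene. The median over all genes, however, was 0.58 from a mean of 5 to under 7 and 1.09 from 9 upwards. A difference that grew with brightness was therefore not removed, and 8 of the 23 genes had a mean of 9 or more. After centring, the 23 genes had a median difference of 0.45 and 18 of them lay above 0, where 53.8% of all bright probe sets did. In the filtered fit with centred arrays 2 of 23 were higher, Psma2 and Psma3, and 0 lower, against 12.0% and 9.18% of the probe sets. Adding the replicate block gave 3 higher, with Psmc2 as the third, and 1 lower, Psmd5, against 18.2% and 14.3%. Shares of 2 in 23 and 3 in 23 were no larger than those backgrounds. Centring without the filter called 11 of 44 higher and 6 lower, where 4.32% of all probe sets were higher and 76.8% lower, since it moved probe sets at the bottom of the table by the same 0.68. Without CD31+ replicate 3 or without double positive replicate 1, 0 of 23 were higher in the centred fit, and leaving out each of the other arrays gave between 1 and 3, while between 8.16% and 14.1% of the probe sets were higher over the 6 fits.

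**Figure D2:**
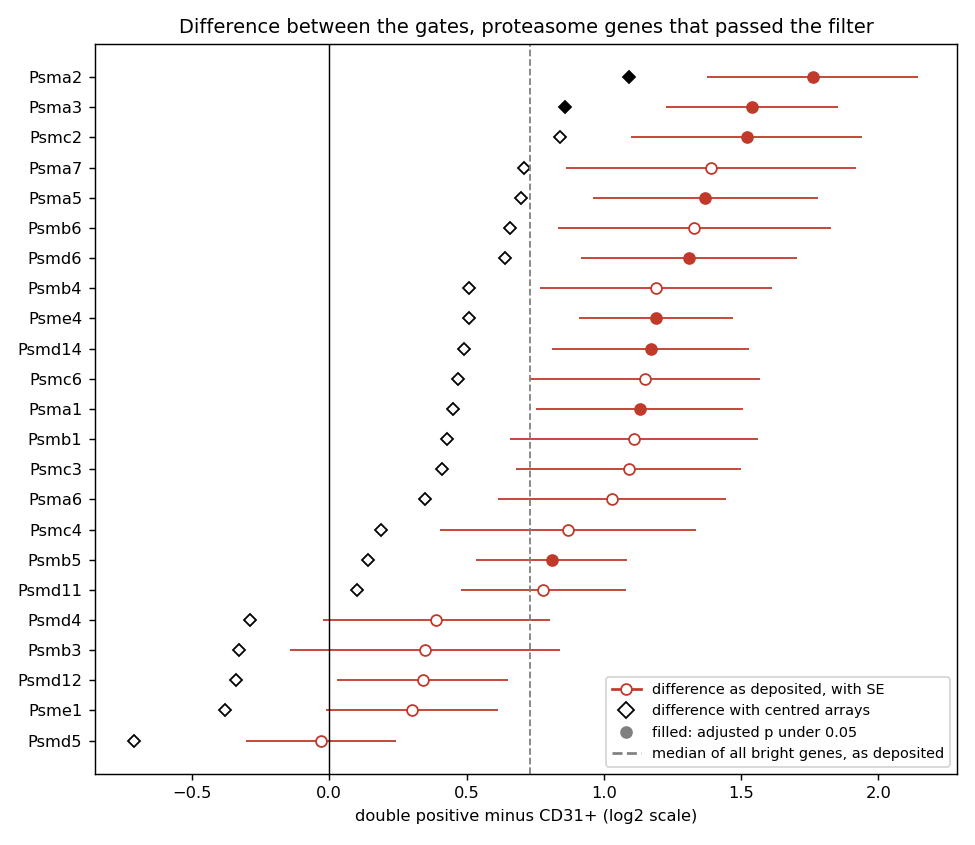
Difference between the gates (horizontal axis, double positive minus CD31+, log2 scale) for the 23 proteasome genes that passed the filter, as deposited with its standard error (circles) and with centred arrays (diamonds). Filled symbols have an adjusted p under 0.05 in limma, which holds for 9 circles and 2 diamonds. The dashed line is the median of all bright genes as deposited, 0.73, and 18 circles lie to the right of it.

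The promoters of Psma2, Psma3, Psmc2 and Psmd5 are printed here, because the chosen probe sets of these 4 genes passed a filtered fit with centred arrays. Psma2 and Psma3 passed it with and without the replicate block, and Psmc2 and Psmd5 only with the block. Each window runs from 250 bases before to 50 bases after a transcription start in RefSeq (assembly GRCm38.p6), 5′ to 3′ on the strand of the gene, and Psmc2 has a pair of starts. Capitals mark 4 short motifs on either strand: the core of the ETS factor site (CCGGAAG), the GC box bound by Sp1 (GGGCGG), the CCAAT box (CCAAT) and the antioxidant response element through which Nfe2l1 and Nfe2l2 act on proteasome genes (TGACNNNGC).
Psma2, chr13:14612992-14613291, plus strand: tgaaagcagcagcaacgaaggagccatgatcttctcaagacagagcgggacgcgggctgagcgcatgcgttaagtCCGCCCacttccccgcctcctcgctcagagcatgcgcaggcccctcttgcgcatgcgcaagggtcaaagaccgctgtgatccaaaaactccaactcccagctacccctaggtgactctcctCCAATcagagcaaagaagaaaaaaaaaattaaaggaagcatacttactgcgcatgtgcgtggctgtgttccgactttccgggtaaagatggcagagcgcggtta
Psma3, chr12:70974373-70974672, plus strand: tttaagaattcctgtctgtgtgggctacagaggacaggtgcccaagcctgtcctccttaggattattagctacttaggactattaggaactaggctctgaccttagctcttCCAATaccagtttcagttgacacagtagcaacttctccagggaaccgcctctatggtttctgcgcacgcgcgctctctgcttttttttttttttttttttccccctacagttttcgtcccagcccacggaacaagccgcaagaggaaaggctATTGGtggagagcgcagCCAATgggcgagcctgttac
Psmc2, chr5:21785025-21785324, plus strand: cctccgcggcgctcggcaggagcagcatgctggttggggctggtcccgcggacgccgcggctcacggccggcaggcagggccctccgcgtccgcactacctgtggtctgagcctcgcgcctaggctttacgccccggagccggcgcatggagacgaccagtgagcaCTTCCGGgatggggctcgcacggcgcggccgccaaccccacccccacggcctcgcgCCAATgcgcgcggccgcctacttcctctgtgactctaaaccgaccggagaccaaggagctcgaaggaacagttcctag
Psmc2, chr5:21786497-21786796, plus strand: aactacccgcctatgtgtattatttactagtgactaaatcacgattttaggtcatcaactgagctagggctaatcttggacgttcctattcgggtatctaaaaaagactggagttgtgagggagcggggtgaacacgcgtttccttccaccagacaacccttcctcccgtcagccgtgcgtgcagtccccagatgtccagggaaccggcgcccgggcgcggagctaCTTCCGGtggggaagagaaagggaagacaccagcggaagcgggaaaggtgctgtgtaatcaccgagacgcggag
Psmd5, chr2:34870913-34871212, minus strand: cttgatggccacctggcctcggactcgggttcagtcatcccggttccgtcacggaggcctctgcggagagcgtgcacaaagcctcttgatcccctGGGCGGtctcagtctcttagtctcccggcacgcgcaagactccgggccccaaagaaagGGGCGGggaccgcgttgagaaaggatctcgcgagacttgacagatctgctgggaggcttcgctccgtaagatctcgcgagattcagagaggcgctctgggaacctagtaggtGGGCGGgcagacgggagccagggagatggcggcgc
The Psma2 window held 1 GC box and 1 CCAAT box, the Psma3 window 3 CCAAT boxes, both Psmc2 windows 1 ETS core each, the first of them with 1 CCAAT box as well, and the Psmd5 window 3 GC boxes. None of the 4 genes had an antioxidant response element in these windows.

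Promoters were listed for 36 of the 44 genes. The ETS core was found in 14 of them (38.9%), against 20.5% of the 3261 bright genes with a promoter and 9.93% of all 27025 genes in the table. Psma6, Psmc1, Psmc6, Psmd4, Psmd6 and Psme4 were among the 14. The GC box occurred in 58.3% of the proteasome promoters and in 73.8% of bright ones, the CCAAT box in 36.1% and 42.7%, and the antioxidant response element in 16.7% and 18.4%. The 6 promoters with that element were those of Psmb5, Psmb6, Psmc6, Psmd9, Psmd12 and Psme4. Of the other motifs searched, the cyclic AMP response element TGACGTCA had 0 matches in the 36 and 3.43% in bright promoters, the E box CACGTG 8.3% and 12.6%, the AP-1 site TGAGTCA 2.8% and 4.81%, and the TATA box TATAAA 8.3% and 9.78%. Motif matches are letters in a window and were not tested against the differences.

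The alpha ring, which forms the gate of the core particle, had the highest median difference among the groups of more than 1 gene. Its 8 genes had a median of 1.34, and in 7 of them the double positive values lay above the CD31+ values without overlap. The same held for 10.8% of all probe sets, 46.4% of bright ones and 3079 of 18193 genes at their brightest probe set. In the filtered fit 4 of its 6 tested genes were higher, where 32.9% of the probe sets were. Psma2, whose promoter is printed above, read 8.22, 7.82 and 7.58 on the double positive arrays and 6.57, 6.43 and 5.34 on the CD31+ arrays. Every double positive value lay above every CD31+ value, and CD31+ replicate 3 was the lowest of the 6. Its difference was 1.76 ± 0.385 (SE, n = 3 and 3; adjusted p = 0.00921 in the filtered limma fit), and 1.09 ± 0.29 with centred arrays (adjusted p = 0.0227). The next gene, Psma3, read 11.22, 10.93 and 10.63 in the double positive gate and 9.60, 9.59 and 8.96 in the CD31+ gate, again without overlap. The difference was 1.54 ± 0.313 (adjusted p = 0.0067, filtered fit), and 0.86 ± 0.254 with centred arrays (adjusted p = 0.0347).

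Psma4 was dim, and yet it was the gene with the smallest adjusted p of the unfiltered fit. It read 4.08, 4.43 and 3.83 against 2.86, 2.83 and 2.74, so the CD31+ arrays were close to the lowest value of the table and close to each other. The difference was 1.30 ± 0.17 (SE; adjusted p = 0.0834). When the probe sets of each gene were averaged before the fit, Psma4 was the 1 proteasome gene higher (adjusted p = 0.0422) and 0 were lower, where 2.24% of genes were higher and 0.456% lower. It was again the 1 gene of 44 when 1 probe set per gene was tested (adjusted p = 0.0434), where 2.21% of genes were higher and 0.418% lower. Psma1 differed by 1.13 and Psma5 by 1.37, both higher in the filtered fit, whereas Psma6 (1.03) and Psma7 (1.39) passed it only with the replicate block (adjusted p = 0.0274 and 0.00604, against 0.0778 and 0.0663 without it). For Psma7 the CD31+ values ran from 3.09 on replicate 3 to 5.14 on replicate 1. Psma8, an alpha subunit made mainly in testis, was the exception of the ring. Its values lay between 2.40 and 2.53 on the double positive arrays and between 2.60 and 3.20 on the CD31+ arrays, so that the word constitutive does not describe it here, and its difference of -0.36 had an adjusted p of 0.659.

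Among the beta subunits that cut, Psmb5 carries the chymotrypsin-like activity. The double positive arrays read 7.33, 7.0 and 7.30 and the CD31+ arrays 6.56, 6.41 and 6.21. The groups did not overlap, and the SD was 0.186 and 0.175. Psmb5 differed by 0.81 ± 0.274 (adjusted p = 0.0454 in the filtered fit), close to the median of all bright genes, and by 0.14 ± 0.258 with centred arrays (adjusted p = 0.754). Psmb6, with the caspase-like activity, read 8.31, 8.53 and 7.67 against 6.54, 7.96 and 6.01. CD31+ replicate 2 overlapped the double positive arrays, and the difference of 1.33 ± 0.497 had an adjusted p of 0.0624 in the filtered fit, which became 0.00608 with the replicate block. Psmb7, with the trypsin-like activity, was dim at 3.95, 3.66 and 3.68 against 2.50, 2.50 and 3.21, a difference of 1.02 ± 0.242 (adjusted p = 0.257 in the unfiltered fit). Psmb11, the catalytic subunit of thymic cortical epithelium, stood at the lowest value of the table, 2.39, on all 6 arrays, so no difference could be measured.

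The other beta subunits are structural, and none of the 3 that were tested passed the filtered fit. Psmb4 differed by 1.19 (adjusted p = 0.0538) and Psmb1 by 1.11 (adjusted p = 0.0802), and both passed with the replicate block (adjusted p = 0.0207 and 0.0176). Psmb3 read 10.33, 9.93 and 8.95 against 9.51, 10.14 and 8.51, with wide overlap and a difference of 0.35. Psmb2 was dim and read 4.69 to 4.77 on the CD31+ arrays and 4.77 to 5.75 on the double positive arrays.

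The interferon-inducible catalytic subunits, which replace the constitutive ones, stood beside them for comparison. Psmb8 differed by 0.93, Psmb9 by 0.89 and Psmb10 by 1.06, each without overlap between the gates. In the filtered fit Psmb9 (adjusted p = 0.0331) and Psmb10 (adjusted p = 0.0244) were higher and Psmb8 was not (adjusted p = 0.0682, or 0.0206 with the replicate block). With centred arrays their differences lay between 0.21 and 0.38 and 0 of 3 passed. The constitutive Psmb5, Psmb6 and Psmb7 had differences of 0.81, 1.33 and 1.02, a range that takes in the immunoproteasome values.

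In the regulatory particle, the 6 ATPases of the base, which unfold substrates, all read higher in the double positive gate. Their differences ran from 0.43 for Psmc1 to 1.52 for Psmc2, with a median of 0.98, and the gates did not overlap for 5 of 6. The background was 10.8% of all and 46.4% of bright probe sets, and 3079 of 18193 genes at their brightest probe set. Psmc1 was among the 5 by a narrow gap, 4.83 against 4.81. Psmc2 read 12.37, 11.26 and 12.07 on the double positive arrays and 10.91, 10.57 and 9.66 on the CD31+ arrays. The lowest double positive value lay above the highest CD31+ value, by a gap smaller than the range within either gate. The difference was 1.52 ± 0.42 (adjusted p = 0.023, filtered fit), and 0.84 ± 0.334 with centred arrays (adjusted p = 0.101, or 0.0291 with the replicate block). Psmc3 (1.09) and Psmc6 (1.15) passed the filtered fit only with the replicate block (adjusted p = 0.00993 and 0.0214, against 0.0634 and 0.0583 without it), and Psmc4 (0.87) passed neither. Psmc4 showed how far 1 array could reach. Its 3 double positive values lay between 10.48 and 10.51, and the CD31+ values were 9.91, 10.46 and 8.51.

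The other subunits of the base bind ubiquitin or hold the scaffold, and they differed little. Psmd4, a ubiquitin receptor, read 5.82, 5.55 and 5.32 against 5.73, 5.53 and 4.25, so that only CD31+ replicate 3 stood apart. Its difference was 0.39 ± 0.413 (adjusted p = 0.459, filtered fit), fell to -0.07 without that array, and was -0.29 with centred arrays. Psmd1 and Psmd2, the scaffold subunits, were dim and differed by 0.50 and 0.23.

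The 8 lid genes had a median difference of 0.48, and 4 of them were bright. Psmd14, the deubiquitinase that removes ubiquitin from a substrate as it enters, read 9.27, 8.87 and 9.22 against 8.55, 7.96 and 7.34, without overlap. It differed by 1.17 ± 0.357 (adjusted p = 0.0324, filtered fit), and by 0.49 with centred arrays (adjusted p = 0.258). Psmd6 gave 10.44, 10.35 and 10.25 against 9.28, 9.64 and 8.17, a difference of 1.31 ± 0.394 (adjusted p = 0.0304, filtered fit). Psmd11 differed by 0.78 without overlap (adjusted p = 0.0689) and passed with the replicate block (adjusted p = 0.0473), and Psmd12 differed by 0.34 with overlap (adjusted p = 0.392). Psmd8 was dim and read 3.77, 3.94 and 3.50 against 3.13, 3.50 and 2.72, a difference of 0.62 (adjusted p = 0.615, unfiltered fit). Psmd3, Psmd7 and Psmd13 read between 2.57 and 3.16 on every array, and each differed by 0.01, so their probe sets carried no measurable difference.

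Chaperones assemble the base and the core without staying in the finished particle. Psmd10, also known as the oncoprotein gankyrin, read 5.01, 5.88 and 4.65 against 3.46, 3.69 and 3.60. The CD31+ values lay close together (SD 0.115) and below every double positive value, and the difference was 1.60 ± 0.357 (adjusted p = 0.234, unfiltered fit). Psmd5, whose promoter is printed above, had the lowest difference of the 23 bright genes. Its 3 double positive values were all 5.25, and its CD31+ values were 5.51, 5.34 and 5.01 around them. The difference was -0.03 ± 0.274 (adjusted p = 0.926, filtered fit) and, with centred arrays, -0.71 ± 0.251 (adjusted p = 0.0693, or 0.0499 with the replicate block). As deposited, its values did not separate the gates, and centring takes 0.68 from every difference. Psmd9 read 6.63 and 6.01 on the arrays numbered 2 and at most 3.49 on the other 4. Replicate number and not gate thus separated the values of its chosen probe set, 1 of 3. Its dimmer probe sets read 3.59 to 3.70 and 2.40 to 2.71 over all arrays, without that pattern. Of the chaperones of the core, Psmg2 had the largest difference, 1.24 ± 0.208 (adjusted p = 0.138, unfiltered fit), from values of 4.80, 4.70 and 5.34 against 3.86, 3.71 and 3.55.

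Activators dock on the ends of the core in place of the regulatory particle. Psme4, an activator linked to chromatin and to the breakdown of acetylated histones, read 8.32, 8.72 and 8.24 against 7.21, 7.41 and 7.09. The gates were far apart compared with the spread inside each, and the difference was 1.19 ± 0.281 (adjusted p = 0.0129, filtered fit; 0.0978 in the unfiltered fit). It came to 0.51 with centred arrays (adjusted p = 0.22). The next brightest of its 6 probe sets, with a mean of 4.58, gave 0.77. Psme1, a subunit of the interferon-inducible activator, read 5.66, 5.21 and 5.12 against 5.28, 5.19 and 4.61, with overlap, and differed by 0.30 ± 0.313 (adjusted p = 0.447, filtered fit) or -0.38 with centred arrays. The probe set shared by Psme2 and Psme2b differed by 0.66 ± 0.365 (adjusted p = 0.171, filtered fit) and by -0.02 with centred arrays. Psmf1, which encodes a protein that inhibits the core particle in vitro, was dim and read 5.0, 3.88 and 4.79 against 2.75, 2.71 and 3.29, without overlap, a difference of 1.64 ± 0.375 (adjusted p = 0.242, unfiltered fit). That value rests on 1 of its 4 probe sets, and the other 3, all dimmer, gave 0.39, 0.03 and -0.05.

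Genes with several probe sets gave a check on the choice of one. Of the 44 genes 19 had 1 probe set and Psmd11 had 8, and 7 genes had a pair of bright ones. The largest gap between such a pair was 0.64 on the log2 scale, for Psma6, where the chosen probe set gave 1.03 and the dimmer one 1.67. The dimmer probe sets of Psmb4 and Psmc2 also gave the larger difference, 1.58 against 1.19 and 1.83 against 1.52. In the other 4 the dimmer one gave the smaller difference, 1.31 against 1.37 for Psma5, 0.88 against 1.15 for Psmc6, 1.27 against 1.31 for Psmd6 and 0.47 against 0.78 for Psmd11. Of the 30 bright probe sets of proteasome genes, 29 had a difference above 0, with a median of 1.16. All bright probe sets had a median of 0.75, and most bright genes of the array lay above 0 too (lower quartile 0.23). Counting a gene as called when any of its probe sets passed, 11 of 23 genes were higher in the filtered fit, where 36.0% of the 4213 genes with a tested probe set were, and 5 in the filtered fit with centred arrays, where 13.9% were. The 5 were Psma2, Psma3, Psma6, Psmb4 and Psmc2.

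The gates did not overlap, with the double positive gate higher, for 23 of 44 genes, against 10.8% of all probe sets and 46.4% of bright ones. With every gene at its brightest probe set, as for the 44, this held for 3079 of 18193 genes. The order was reversed for 1 gene, Psma8, against 2.32% of all probe sets, 5.19% of bright ones and 623 of the 18193 genes. All 3 same-numbered pairs of arrays had the higher value on the double positive side for 32 of 44 genes. That was so for 16.9% of all probe sets, 64.5% of bright ones and 4579 of the 18193 genes. In an exact permutation test 3 arrays against 3 cannot go below p = 0.1, so that test could not call any gene.

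The size of the difference varied with the pair. For the 23 bright genes the median was 0.82 between the arrays numbered 1, 0.69 between those numbered 2 and 1.44 between those numbered 3, against 0.72, 0.41 and 1.05 over all bright probe sets. CD31+ replicate 3 was the lowest of the 6 arrays for 22 of the 23 genes (95.7%) and for 59.5% of bright probe sets. After centring it was still the lowest for 14 of 23. The share of all bright probe sets after centring was not counted, so 14 of 23 cannot be read as particular to these genes. The median SD of the bright genes was 0.658 between the CD31+ arrays and 0.321 between the double positive arrays, and for all bright probe sets it was 0.455 and 0.327.

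**Figure D3:**
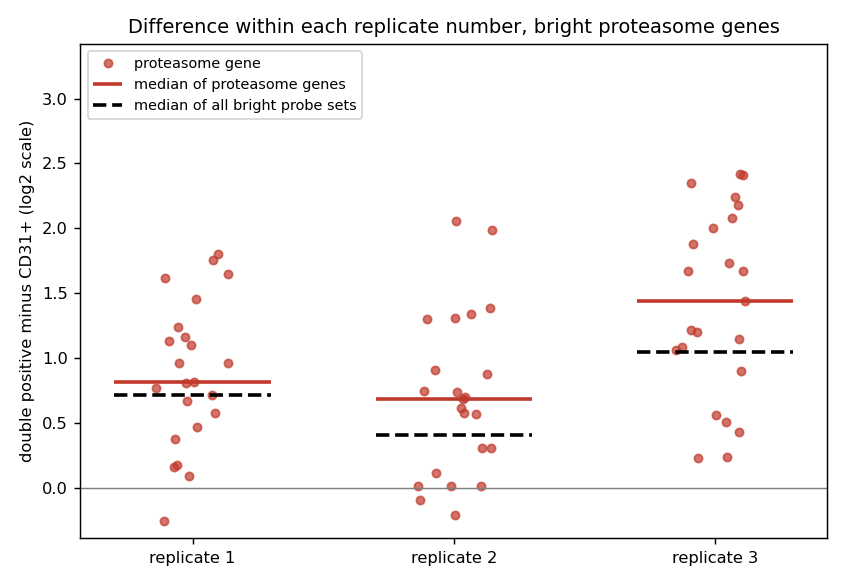
Difference between the double positive and the CD31+ array of the same replicate number (vertical axis, log2 scale) for each of the 23 bright proteasome genes (points), with their median (solid line) and the median of all bright probe sets (dashed line). The solid line lies above the dashed line in each pair, at 0.82, 0.69 and 1.44 against 0.72, 0.41 and 1.05.

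Quartiles of the difference over the bright proteasome genes were 0.80 and 1.32, an interquartile range of 0.53. That of all 3984 bright genes was 0.97, but bright ribosomal proteins (0.55) and subunits of oxidative phosphorylation (0.54) had about the same range as the proteasome, and 24.8% of bright genes lay outside the range of the proteasome genes. The difference grew with brightness in both sets. From a mean of 5 to under 7 the median was 0.95 for 10 proteasome genes and 0.58 for all genes, from 7 to under 9 it was 1.17 for 5 genes and 0.79 for all, and from 9 upwards 1.25 for 8 genes and 1.09 for all. The core particle (11 bright genes) had a median of 1.19 and the regulatory particle (9 bright genes) 1.09.

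**Figure D4:**
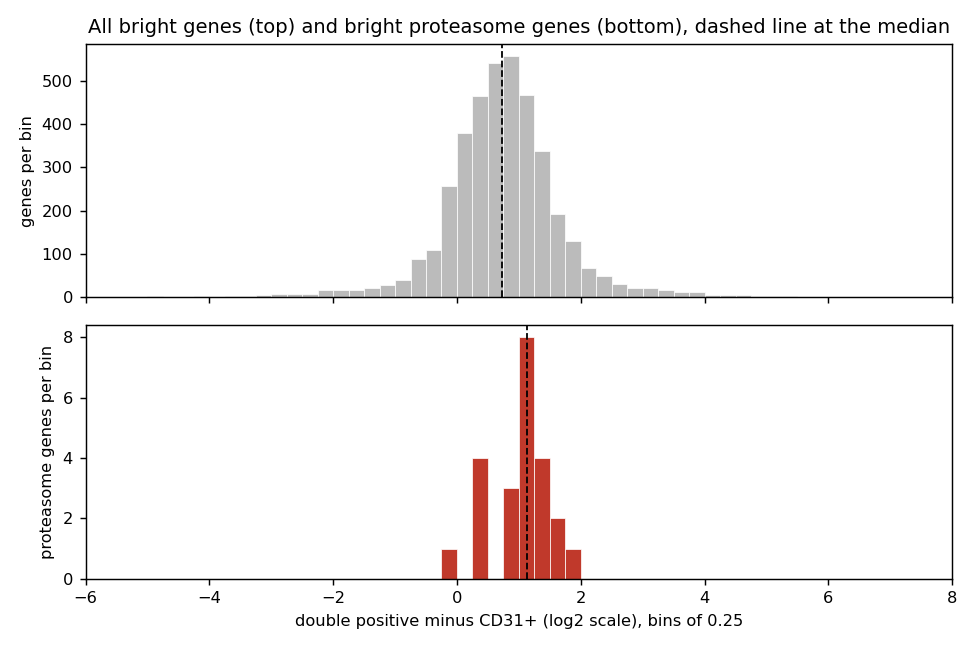
Number of genes per bin of 0.25 by difference between the gates (horizontal axis, double positive minus CD31+, log2 scale) for the 3984 bright genes (top) and the 23 bright proteasome genes (bottom), with the median of each as a dashed line. The proteasome genes lie between -0.03 and 1.76 around a median of 1.13, within the spread of all bright genes around 0.73.

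Of a list of 26 genes that work with the proteasome, 17 could be measured singly, and their median difference was 0.67 (0.85 over the 12 bright ones, with an interquartile range of 1.14). In the filtered fit 5 of 12 were higher and 0 lower, where 32.9% of the probe sets were higher. Zfand5, a zinc finger protein that binds ubiquitin and activates the proteasome, read 12.70, 12.56 and 12.58 against 11.19, 11.04 and 10.34. It had no overlap and differed by 1.76 ± 0.311 (SE; adjusted p = 0.00345, filtered fit). In the unfiltered fit its adjusted p was 0.103. The other 4 were Akirin2 (1.5), which brings proteasomes into the nucleus, Txnl1 (1.84), a thioredoxin bound to the regulatory particle, Ngly1 (1.08), the deglycosylase that Nfe2l1 requires, and Sem1 (1.51), a small lid subunit outside the Psm names. In the filtered fit with centred arrays 2 of 12 were higher, Zfand5 (adjusted p = 0.0121) and Txnl1 (adjusted p = 0.0259), where 12.0% of the probe sets were.

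A few other partners were picked out after their values were seen. Usp14, a deubiquitinase that trims chains on the regulatory particle, read 5.22, 4.24 and 5.22 against 5.22, 5.17 and 6.35, a difference of -0.69 (adjusted p = 0.211, filtered fit). In the filtered fit with centred arrays it was not called (adjusted p = 0.0598). With the replicate block added it was lower (adjusted p = 0.000771), as were 14.3% of the probe sets in that fit. These values come from 1 of its 4 probe sets. Pomp, the chaperone of the nascent core, differed by 0.73 (adjusted p = 0.0999, filtered fit). Nfe2l1, the transcription factor that raises proteasome genes when the protease is inhibited, was dim and differed by -0.25, and its relative Nfe2l2 differed by 0.33 (adjusted p = 0.404, filtered fit).

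Other large assemblies of the cell had differences of similar size. Over bright genes the median was 1.02 for 38 cytosolic ribosomal proteins and 1.30 for 57 subunits of oxidative phosphorylation, against 1.13 for the proteasome and 0.93 for the 3 immunoproteasome subunits. In the filtered fit 10 of 38 ribosomal and 28 of 58 oxidative phosphorylation genes were higher and 0 of either lower, where 32.9% of all tested probe sets were higher. These medians describe the lists, and the differences between lists were not tested.

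**Figure D5:**
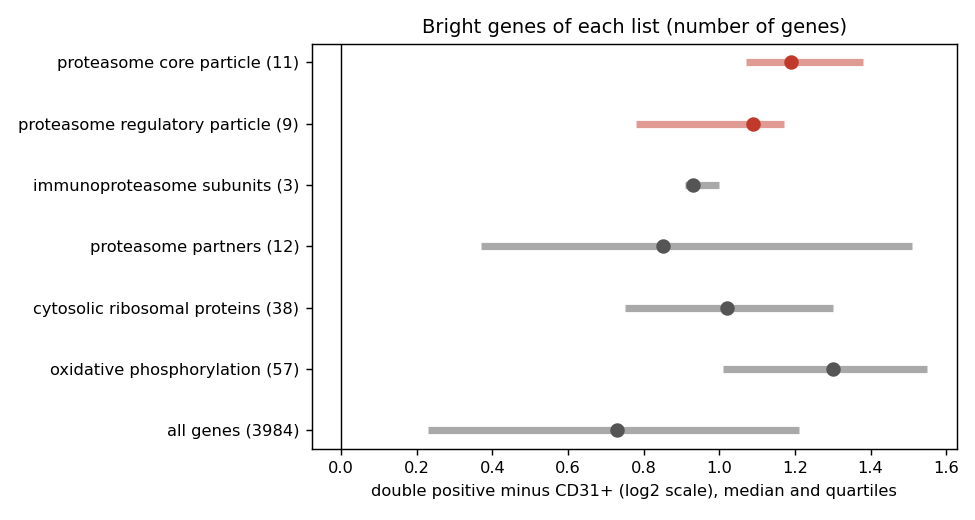
Median (point) and quartiles (bar) of the difference between the gates (horizontal axis, double positive minus CD31+, log2 scale) over the bright genes of each list, with the number of genes in parentheses. The core particle (median 1.19) and the regulatory particle (1.09) lie between the ribosomal proteins (1.02) and oxidative phosphorylation (1.30), and all lie to the right of the median of all bright genes (0.73).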

How the data were processed

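RNA of 6 sorted endothelial samples was measured on Affymetrix arrays, 3 per gate. The deposited values were log2 expression values that the authors made with GCRMA, which corrects background, normalizes by quantiles and summarises probes, and the processing notes also name limma. The p-values of fits without the replicate block measure the spread, within each gate, between samples labelled biological replicates, and leave the pairing out. Those with the block measure the spread of the paired differences.

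Of 45101 probe sets, 64 controls were dropped. The platform annotation gave 34945 probe sets 1 gene, 932 several and 9160 none. All 45037 remaining probe sets were fitted in limma 3.58.1 (R 4.3.3, lmFit and eBayes, Benjamini-Hochberg, 5% false discovery rate) without covariate. Alternatives were a filter (log2 of 5 or more on 3 arrays or more), centred arrays, the replicate number as a block, other variance models, other choices of probe set and leaving out each array. Leaving out arrays within the filtered fits was added after seeing the data. The fit was tested on simulated data.

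The replicate numbers pair the samples: the design text calls them paired, and deviations from the group means correlated at 0.341, 0.475 and 0.418 between same-numbered arrays and between -0.405 and 0.0566 otherwise. Full statistics were given for the catalytic subunits, the 5 largest and 5 smallest differences, the 3 smallest adjusted p, Psmd14, Psmd4 and Psme1, with every other member free to be named. The members and lists were chosen with earlier results of these data known.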

Additional observations from a re-analysis of the deposited data

How the results depend on the processing

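Over the 44 proteasome genes, 0 higher and 0 lower calls were also obtained with the replicate block, trend and robust variances, array weights, 1% false discovery rate, a minimum difference of 1, the probe set chosen without the _x_at and _s_at suffixes, and each array left out in turn (0 to 0). Psma4 alone was higher, 1 of 44, when probe sets were averaged per gene or 1 probe set per gene was tested (2.24% and 2.21% of genes higher). At an unadjusted p under 0.05 there were 16, where 2275 of 18193 genes were higher at their brightest probe set. The filter gave 9 higher, and 17 with the replicate block, which used the pairing of the arrays; centred arrays with the filter gave 2, and 3 higher with 1 lower when the block was added. With 1 array left out the filter gave 8, 11 and 5 (CD31+ replicates 1 to 3 in turn) and 2, 4 and 4 (double positive). Between 14.2% and 37.5% of all tested probe sets were higher in those fits. The filter with centred arrays gave 0 to 3, where between 8.16% and 14.1% of the probe sets were higher. Centring without the filter gave 11 higher and 6 lower, but it also called 76.8% of all probe sets lower, since it moves probe sets at the bottom of the table by 0.68 with almost no spread. The median difference of 0.84 became 1.13 with the filter, with or without the block, 0.45 with the filter and centred arrays, again with or without the block, 0.16 with centring alone and 0.43 with averaged probe sets. Leaving out 1 array at a time gave 0.67 to 0.90.

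Centring without the filter turned the sign of 16 of the 41 differences above 0, 4 of them in bright genes (Psmb3, Psmd4, Psmd12 and Psme1). Among the genes given full statistics, signs turned for 5. Psmd3 and Psmd7 became -0.67 with centring, and with 1 array left out they ranged from -0.01 to 0.02 and from -0.02 to 0.03, the lowest without double positive replicate 1. Psmd4 became -0.29 in the 3 centred fits and ranged from -0.07 (without CD31+ replicate 3) to 0.67, Psme1 became -0.38 in the 3 centred fits, and Psmd5 ranged from -0.17 to 0.08, the highest without CD31+ replicate 1. The cause was not tested. With 3 arrays per gate, a probe set near 2.39 cannot show a fall, and 21 genes with a mean under 5 limit what the counts can say.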
